A study of Mus musculus with 4 samples.

Results

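Malat1, Neat1, Gm42418, Gm26917, CT010467.1, Lars2, Mir6236 and Rn7sk were followed across single-cell libraries because their reads are commonly taken as signs of nuclear, ribosomal or damaged RNA. They were chosen by their part in barcodes of few unique molecular identifiers (UMIs, the tags that count captured RNA molecules), matched by gene symbol, and are 8 of the 55450 features in the files. All 8 had UMIs in all 4 libraries. Their shares against depth are therefore given as a description, with no test.

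The libraries came from subcutaneous tumours that grew in C57BL/6J mice, 8 weeks of age when injected, from the murine colon carcinoma line MC38. Hnrnpa2b1, the gene of a nuclear protein that binds RNA, was knocked out in the injected cells of the KO group and left in place in the WT group, and no edit of the host mice is named for either group. There were 2 tumours in each group, digested with enzymes and strained, with no sorting step stated. How the knockout was made, and whether the line is 1 clone, is not given in the sources used here, nor is the source of each tumour beyond its number. P-values therefore measure only the spread between these tumours.

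Libraries held 9547 to 12741 barcodes and 114136609 to 153162562 UMIs, with median depths of 5779 to 10384 UMIs per barcode. Cells were clustered without the 8 genes and named from marker lists, each name meaning cells like that type. Clusters with under 1 UMI per 10000 of both Xist, made by female cells, and Ptprc, a leukocyte surface antigen, stand in for the tumour cells and are called Xist-low cells. Of 12 epithelial markers, Msln was found in 33.4% to 72.1% of them and every other in at most 2.62%. In these cells Hnrnpa2b1 was at 565 and 551 CPM (UMI counts scaled to a common library total) in the WT group against 359 and 324 CPM in the KO group (log2 fold change -0.71, edgeR adjusted p = 0.0291). It was lowered and not absent. Between any pair of libraries 23 to 43 barcodes were shared, at most 0.450% of a library. WT tumour 2 stood apart from the other 3 tumours in ribosomal RNA-like genes, and values without it are given beside the fold changes, the difference between classes and the likeness of genes that it could set.

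As background, Malat1 and Neat1 are long noncoding RNAs that stay in the nucleus. Malat1 gathers in nuclear speckles, and Neat1 is the scaffold of paraspeckles. Rn7sk, the 7SK RNA, is made by RNA polymerase III and holds the elongation factor P-TEFb inactive, together with Hexim proteins. Ribosomal RNA is cut from a long nucleolar precursor and lacks a poly(A) tail, so droplet libraries primed on poly(A) hold it through A-rich stretches or loose priming. Gene models that overlap ribosomal repeats then collect such reads under a gene name. In a cell whose membrane is broken, cytoplasmic messages leak out while nuclear and mitochondrial RNA is retained longer, which is why these genes are read beside mitochondrial share.

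The positions of the genes are shown first, because several of these models lie on each other or on ribosomal sequence. In GENCODE vM21 (GRCm38, the build called mm10), Gm26917 lies at chr17:39843013-39846341 on the plus strand as a lincRNA of 3329 bases. Gm42418, a lincRNA of 1831 bases at chr17:39846958-39848788 on the plus strand, follows it. CT010467.1, annotated as ribosomal RNA, spans chr17:39846353-39848827 on the minus strand, so that Gm42418 lies wholly inside it. Of the 1812 words of 20 bases in Gm42418, 1768 were present as reverse complement in CT010467.1. The same 60 genomic bases are given below as each transcript would read them, with the longest run of A of Gm42418 and its T counterpart in capitals.
Gm42418: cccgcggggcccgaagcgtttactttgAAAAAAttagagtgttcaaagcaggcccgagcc
CT010467.1: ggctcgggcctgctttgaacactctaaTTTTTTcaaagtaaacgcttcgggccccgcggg
Both are the stretch chr17:39847140-39847199. Cell Ranger was run with its defaults per the labels, which do not spell out the strand setting. Within the shared stretch only strand tells UMIs of this pair apart. Both models had counts of their own, 1186729 to 7209124 UMIs a library for Gm42418 and 20296 to 54774 for CT010467.1. Gm26917 shared no word of 20 bases with either. It is poor in A (8.26% of bases) and rich in CpG (112 per 1000 bases), as its first 90 bases show, with CpG in capitals (chr17:39843013-39843102).
Gm26917: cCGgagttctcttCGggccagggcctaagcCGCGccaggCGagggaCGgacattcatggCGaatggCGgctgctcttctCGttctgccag

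Lars2 is named for an enzyme and Mir6236 for a microRNA, and the UMIs of both are read here with the ribosomal models. A UMI of Mir6236 does not tell the mature microRNA from the rest of the model. Lars2 encodes the leucyl-tRNA synthetase of mitochondria and spans chr9:123366927-123462666 on the plus strand. Its longest transcript carries, in the 3′ untranslated region, a run of 52 bases that also occurs in Gm15564, an antisense RNA model on chromosome 16. The first 30 bases of that run (chr9:123462048-123462077), all shared, are shown as sequence that both models hold.
Lars2: GAATTCACCAAGCGTTGGATTGTTCACCCA
Of the 28 pairs among the 8 genes, 3 shared any word of 20 bases in either direction: Gm42418 with CT010467.1, Malat1 with Neat1 (18 words on the same strand and 11 reverse) and Neat1 with Lars2 (7 words).

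Malat1 and Neat1 neighbour each other on the minus strand of chromosome 19, at chr19:5795690-5802672 and chr19:5824708-5845478. Each longest transcript is a single exon, of 6983 and 20771 bases. The longest run of A in Malat1 has 12 bases and lies near its 3′ end (chr19:5795953-5796034 with flanks), while that of the longer Neat1 has 7 bases (chr19:5835899-5835975). Runs at least as long were held by 18.7% of 1782 and by 85.7% of 21 transcripts of like length.
Malat1: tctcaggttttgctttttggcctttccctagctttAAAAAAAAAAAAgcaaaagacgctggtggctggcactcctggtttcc
Neat1: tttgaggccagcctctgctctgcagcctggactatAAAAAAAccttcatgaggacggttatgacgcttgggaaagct
Rn7sk is an RNA of 331 bases at chr9:78175303-78175633 on the minus strand, and its longest run of A has 3 bases. Its first 100 bases (chr9:78175534-78175633), from the end that Hexim proteins bind, are shown with the 4-letter word GATC in capitals. GATC, its own reverse complement, occurred 3 times, and 0.323% of 139316 transcripts hold it at least 3 times in their first 100 bases.
Rn7sk: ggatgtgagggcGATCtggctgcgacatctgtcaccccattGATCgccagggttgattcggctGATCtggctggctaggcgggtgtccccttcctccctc

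Together the 8 genes gave 1.69% and 6.93% of the total in WT tumours 1 and 2, and 2.99% and 2.13% of those in KO tumours 1 and 2. These are shares of whole libraries, whose make-up of classes differed. Malat1 took a like share of each library, 0.814% and 0.792% in the WT group and 0.968% and 0.760% in the KO group. Gm42418 took 0.775% in WT tumour 1 and 5.83% in WT tumour 2, against 1.81% and 1.20% in the KO group. WT tumour 2 was thus the high library by far, and WT tumour 1 the low one, so that the range of the WT group spans that of the KO group. Rn7sk was rare, with 1388 to 2141 UMIs in a library, found in 9.10% to 11.6% of barcodes. Gm42418 was found in 100% of barcodes of every library.

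The shares of Gm42418, CT010467.1, Lars2 and Mir6236 fell with depth at every step in every library, and that of Gm26917 at 5 or 6 of the 6 steps. Gm42418 took 5.73% of UMIs in barcodes under 1000 UMIs of WT tumour 1, and 0.202% in barcodes of 50000 UMIs or more. In WT tumour 2 its share fell from 19.3% to 0.819%. In the KO tumours it fell from 10.4% to 0.512% and from 10.9% to 0.303%. WT tumour 2 was highest and WT tumour 1 lowest in each of the 7 depth bins, with the KO tumours between them. Mir6236 was 13.5 to 37.2 times and CT010467.1 17.3 to 28.2 times as high under 1000 UMIs as at 20000 to 50000 UMIs, against 6.48 to 17.9 times for Gm42418 and 6.15 to 18.6 times for Lars2.

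Malat1, the speckle RNA, followed another course. Its share was highest in barcodes of 1000 to 2000 UMIs in all 4 libraries, not in the shallowest. In WT tumour 1 it was 1.36% under 1000 UMIs, 2.30% at 1000 to 2000 and 0.357% at 50000 or more. The same 3 shares were 1.35%, 1.71% and 0.336% in WT tumour 2. They were 2.06%, 2.66% and 0.393% in KO tumour 1, and 2.14%, 2.43% and 0.457% in KO tumour 2. The shallowest barcodes thus held 2.23, 1.95, 3.24 and 4.55 times the share of those at 20000 to 50000 UMIs, a smaller ratio in each library than that of Gm42418. Neat1 was highest under 1000 UMIs in WT tumour 2 and KO tumour 2, and at 1000 to 2000 UMIs in the other 2.

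**Figure D1:**
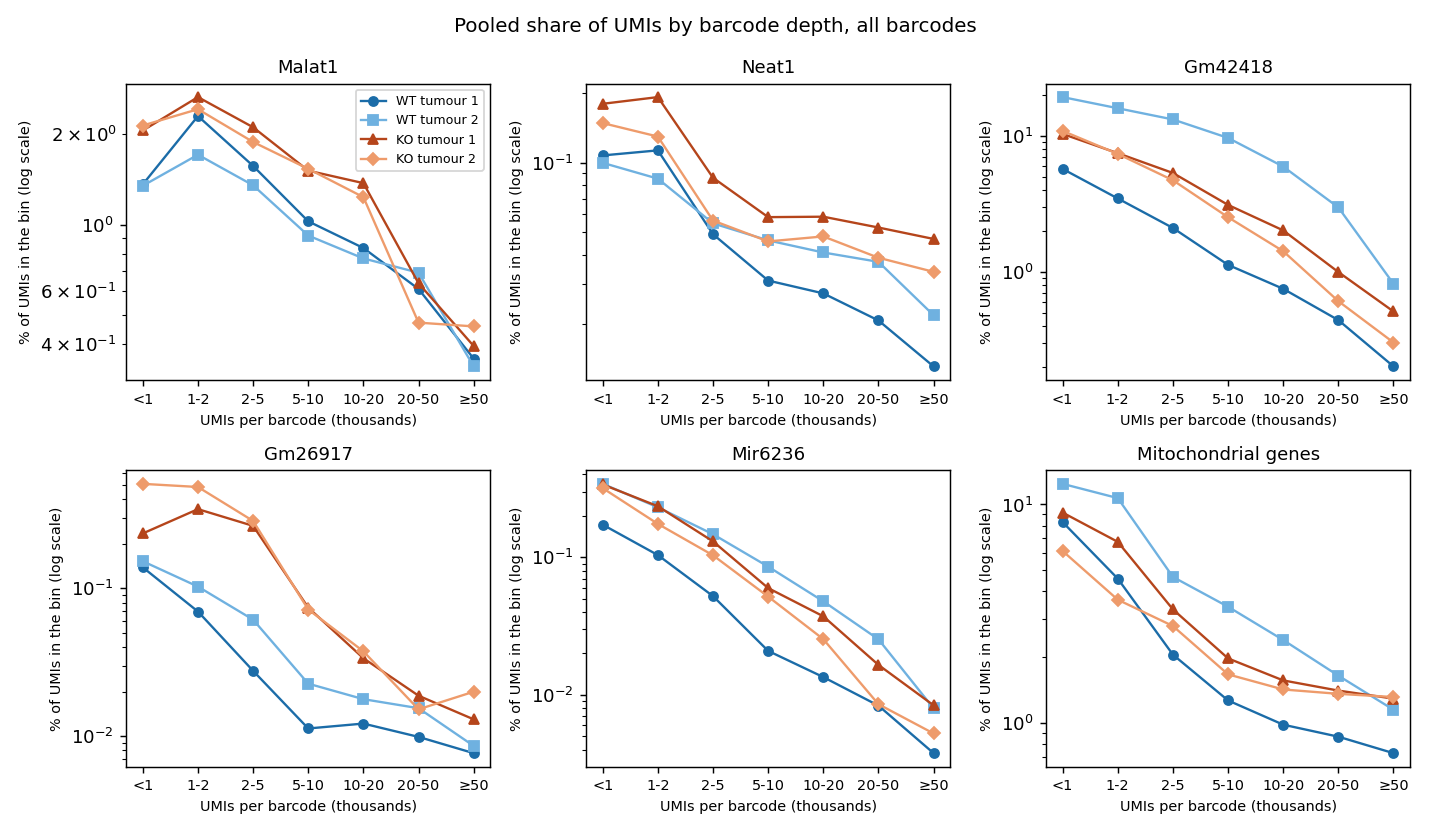
Pooled share of UMIs (log scale, percent) of 5 of the genes and of the mitochondrial genes, against the depth of the barcode in UMIs, over all barcodes, with 1 line for each tumour. Gm42418 and Mir6236 fall at every step in every tumour, Malat1 peaks at 1000 to 2000 UMIs, and the lines for Gm26917 in the KO group lie above those of the WT tumours below 20000 UMIs.

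Other features of the same barcodes moved along the depth axis. Mitochondrial genes gave 8.30% and 12.4% of UMIs under 1000 UMIs in the WT group and 9.18% and 6.12% in the KO group, and fell at every step to between 0.726% and 1.31%. Mitochondrial share counts all 37 mitochondrial genes, the ribosomal RNAs mt-Rnr1 and mt-Rnr2 included. In Xist-low cells of WT tumour 2 this share was 2.31%, while 13 mitochondrial genome transcripts without these ribosomal RNAs summed to 9469 CPM. The part of the mitochondrial ribosomal RNAs in this share was not tested. Ribosomal protein genes, whose messages are cytoplasmic, gave 6.44% to 13.8% under 1000 UMIs and 20.3% to 29.1% at 50000 UMIs or more. Barcodes under 2000 UMIs held 1.02% to 1.98% of the UMIs of a library, but 5.27% to 10.6% of those of Gm42418, 9.61% to 14.8% of those of CT010467.1 and 2.61% to 4.86% of those of Malat1. The classes of cells differ in depth too, so that the pooled curves mix cell type with depth.

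Among barcodes under 2000 UMIs, Malat1 was highest at middle mitochondrial shares. In KO tumour 2 it took 1.33% of UMIs where mitochondrial genes gave under 1%, 3.63% at 5% to 10%, 4.45% at 10% to 20% and 1.45% at 20% or more. In KO tumour 1 the same 4 values were 1.84%, 3.62%, 4.08% and 0.645%. In WT tumour 1 they were 1.78%, 2.92%, 1.88% and 0.772%, and in WT tumour 2 0.653%, 1.67%, 2.14% and 0.755%. Malat1 was thus low at both ends in all 4 libraries, although the lowest mitochondrial group of WT tumour 2 held only 18 barcodes. Gm42418 ranged over the same groups from 3.78% to 5.32% in WT tumour 1, and from 6.67% to 17.8% in KO tumour 2. Gm26917 was lowest where mitochondrial genes gave under 1%, at 0.0379% to 0.0587%, and reached 4.01% in KO tumour 2 at 10% to 20% mitochondrial UMIs.

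Barcodes with high Malat1 and few mitochondrial UMIs were rare. With at least 5% Malat1 and under 1% mitochondrial UMIs there were 26 of 12741 barcodes in WT tumour 1 (0.204%, exact 95% interval 0.133% to 0.299%) and 3 of 11628 in WT tumour 2 (0.0258%, 0.00532% to 0.0754%). In the KO tumours there were 40 of 9547 (0.419%, 0.299% to 0.570%) and 22 of 9578 (0.230%, 0.144% to 0.348%). WT tumour 1 and KO tumour 2 overlap in their intervals, and these cover counting error only. Neutrophils gave 34 of the 91 barcodes, unnamed clusters 13, fibroblasts 11, and dendritic and Xist-low cells 10 each. Barcodes with at least 5% Malat1 at any mitochondrial share were more common, 1.09% and 1.35% of the WT libraries and 4.69% and 2.89% of the KO libraries. With 2 tumours against 2, an exact two-sided permutation test cannot go below p = 0.333, so no test was made on these shares.

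The opposite barcodes, with at least 1000 UMIs and none of them Malat1, numbered 9 of 12226 in WT tumour 1 (0.0736%, 0.0337% to 0.140%) and 84 of 10672 in WT tumour 2 (0.787%, 0.628% to 0.974%). In the KO tumours there were 32 of 8948 (0.358%, 0.245% to 0.504%) and 64 of 8964 (0.714%, 0.550% to 0.911%). They were not free of the ribosomal models: Gm42418 gave 1.83% of their UMIs in WT tumour 1, 8.80% in WT tumour 2 and 7.01% and 5.42% in the KO group. Mitochondrial genes gave 21.7% in KO tumour 1 but 0.951% in WT tumour 1. Unnamed clusters gave 60 of the 189, barcodes removed by the filters or as doublets 59, Xist-low cells 54, and T and NK cells 2.

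Between classes, Malat1 was highest in neutrophils and lowest in Xist-low cells in all 4 tumours, among classes of at least 50 cells in the tumour. Neutrophils held 2.02% and 2.69% Malat1 in the WT group and 2.89% and 2.90% in the KO group. Xist-low cells held 0.775% and 0.703% against 0.385% and 0.399%. These classes did not overlap, but they differ in depth, with median UMIs of 1017 to 1884.5 in neutrophils and 12051 to 39713 in Xist-low cells. Mononuclear phagocytes (1.27% to 1.75%), T and NK cells (1.31% to 1.63%) and fibroblasts (1.33% to 2.08%) overlapped each other. Dendritic cells, with at least 50 cells in 3 tumours, lay between 1.72% and 2.57%.

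At matched depth the classes lay closer together. Between 5000 and 10000 UMIs, Xist-low cells held 1.01% and 0.799% in the WT group and 0.768% and 0.717% in the KO group. Phagocytes of that depth held 1.04% and 1.69% against 1.42% and 1.55%. T and NK cells held 0.888% and 0.924% in the WT group, within the range of the Xist-low cells, and 1.55% and 1.19% in the KO group. In the KO tumours Xist-low cells were thus below both other classes at this depth, while in WT tumour 1 all 3 classes lay within 0.888% to 1.04%.

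Within T and NK cells the Malat1 share fell at every step of depth in every tumour, within phagocytes it did so in the KO group but not the WT tumours, and within Xist-low cells the course differed by tumour. T and NK cells went from 2.44% at 1000 to 2000 UMIs to 1.17% at 10000 to 20000 UMIs in KO tumour 1. Xist-low cells of WT tumour 1 went from 2.24% at 1000 to 2000 UMIs to 0.272% at 50000 or more. Those of WT tumour 2 stayed between 0.462% and 0.799% up to 50000 UMIs and held 0.322% beyond. Those of KO tumour 2 held 0.351% under 1000 UMIs, 0.878% at 2000 to 5000 and 0.390% at 20000 to 50000. Among cells kept in the class, shallow Xist-low barcodes were thus rich in Malat1 in 1 of the 3 tumours with enough cells to see, WT tumour 1. The class leaves out cluster 16, a shallow cluster low in Xist and Ptprc that is described below. That cluster held 197 and 411 cells of the WT tumours and 68 and 137 of the KO tumours. Malat1 gave 1.65% and 0.677% of the UMIs of cluster 16 in the WT group and 1.01% and 0.668% in the KO group.

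**Figure D2:**
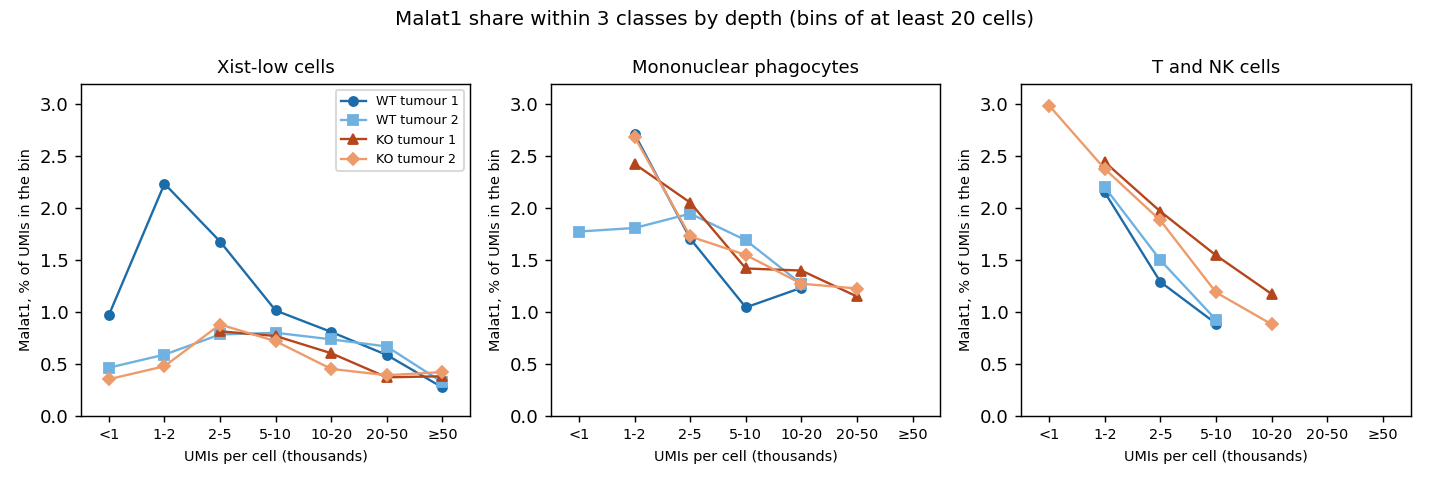
Malat1 share of UMIs (percent, from 0) in 3 classes against depth in UMIs per cell, with 1 line for each tumour and bins of at least 20 cells. T and NK cells decline with depth in every tumour, while among Xist-low cells WT tumour 1 alone has a peak, of 2.24%, at 1000 to 2000 UMIs. Shallow clusters are left out, cluster 16 of the Xist-low class and clusters 15, 20 and 22 of the T and NK class.

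Neat1, the paraspeckle scaffold, was also highest in neutrophils, among classes of at least 50 cells in the tumour. Its share there was 0.119% and 0.228% in the WT group and 0.302% and 0.335% in the KO group. T and NK cells were lowest in all 4 tumours, at 0.0176% and 0.0207% against 0.0291% and 0.0278%. The ratio of these classes was 6.77 to 12.1. Mast cells, with 39, 1, 8 and 23 cells, were at 0.140% in WT tumour 1 and 0.449% in KO tumour 2, above the neutrophils of those tumours. With every cell thinned to 1000 UMIs, at least 1 Neat1 UMI was found in 76.4% to 88.3% of neutrophils of WT tumour 2 and the KO tumours (unthinned 80.3% to 93.7%) and in 17.7% to 27.2% of T and NK cells (unthinned 37.0% to 67.3%). Of neutrophils, 160, 82 and 120 shallower cells were left out, and of T and NK cells 6 to 27 a tumour. The 51 neutrophils of WT tumour 1 were not thinned. No class is known to lack Neat1, so no background share was available.

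Gm42418, Lars2 and Mir6236 were lowest in Xist-low cells in all 4 tumours, and highest in neutrophils or T and NK cells, again among classes of at least 50 cells; the few mast cells fell outside this order, with Gm42418 at 5.44% in KO tumour 2 and 0.804% in KO tumour 1. Gm42418 gave 0.743%, 5.40%, 0.820% and 0.599% of UMIs of Xist-low cells in WT tumour 1, WT tumour 2, KO tumour 1 and KO tumour 2. In T and NK cells it gave 2.06%, 14.1%, 4.48% and 4.32%, and in neutrophils 2.98%, 12.6%, 3.81% and 4.96%. These classes differ in depth, and the shares of these genes fell with depth as given above. Median UMIs were 1017 to 1884.5 in neutrophils, 2290 to 4289 in T and NK cells and 12051 to 39713 in Xist-low cells. The part of depth in this order of classes was not tested. WT tumour 2 was the highest tumour in each of the 5 classes compared, 2.54 to 6.59 times the next one for Gm42418, 2.10 to 5.5 times for Lars2, 1.42 to 3.24 times for Mir6236 and 1.1 to 2.48 times for CT010467.1. It was not so for Malat1 (highest in 1 class), Gm26917 (1 class), Neat1 or Rn7sk (0 classes).

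Lars2 tracked Gm42418 more closely than any other gene did. Per UMI of Lars2 there were 31.6 to 37.4 UMIs of Gm42418 over the 7 depth bins of WT tumour 1, 36.3 to 42.3 in WT tumour 2, 32.2 to 43.1 in KO tumour 1 and 30.8 to 37.1 in KO tumour 2. The ratio stayed within 1.34-fold in each library while the share of Gm42418 fell along the same bins as given above. Over classes of at least 50 cells it varied more, by 1.53, 1.12, 1.67 and 1.58-fold in WT tumour 1, WT tumour 2, KO tumour 1 and KO tumour 2, and Gm42418 per Mir6236 by 1.59 to 1.89-fold. Gm42418 per CT010467.1 varied more over the same bins, 2.04 to 2.97-fold, and Gm42418 per Gm26917 2.65 to 4.49-fold. Across 27 sums of class and tumour, the gene most like Gm42418 among 9129 was Lars2 (Pearson r = 0.98 of log2 CPM), followed by Gm15564 (0.97), the mitochondrial ribosomal RNAs mt-Rnr2 (0.93) and mt-Rnr1 (0.91), and Mir6236 (0.91). These sums share library and depth, and r is a description. Without the 5 sums of WT tumour 2, chosen after seeing the data, Lars2 was still first (0.96 over 22 sums) and Mir6236 second (0.96), while Gm15564 was at 0.94, mt-Rnr2 at 0.88 and mt-Rnr1 at 0.83, the last being 63rd in rank. Gm15564 is the model that shares the run of bases with Lars2 shown above.

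Within single barcodes of 5000 to 10000 UMIs the pairing was weaker. Shares of Gm42418 and Lars2 had r between 0.55 and 0.64 over the 4 libraries, Gm42418 and Mir6236 0.38 to 0.56, and Gm42418 and CT010467.1 0.26 to 0.38. Gm42418 and Malat1 had r of 0.08 to 0.28, and Malat1 and Neat1 0.28 to 0.38. These barcodes number 1475 to 3171 a library, share depth and library, and the rarer genes have few UMIs in each.

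The genes most like the other members differed. For Malat1 they were Btg2, Cpeb4, Hbp1, Jak2 and Clec2d (r from 0.90 down to 0.84). For Neat1 they were Itprip, Ccnl1, Dusp1, Ndel1 and Lsmem1 (0.92 to 0.89), and for CT010467.1 Srsf5, Lyst, Rara, Ip6k1 and Mir6236 (0.85 to 0.82). For Gm26917 they were Cd3g, Nsd3, D430042O09Rik, Ranbp9 and Dgkd (0.80 to 0.79), and for Rn7sk Pdcd4, Rad54l2, Cnot3, Crebzf and Prps2 (0.77 to 0.74). Mir6236 was closest to Lars2, Gm42418, Gm15564, Txnip and Usp25 (0.93 to 0.85), and Lars2 to Gm42418, Gm15564, Mir6236, mt-Rnr2 and mt-Rnr1 (0.98 to 0.91). Without WT tumour 2, Mir6236 came first for Lars2 (0.97), with mt-Rnr2 at 0.85 (32nd in rank) and mt-Rnr1 at 0.82 (62nd). For CT010467.1, Lyst then came first (0.89), and Mir6236 was at 0.76 (85th). Malat1, Neat1, Gm26917, Mir6236 and Rn7sk kept the same first gene.

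**Figure D3:**
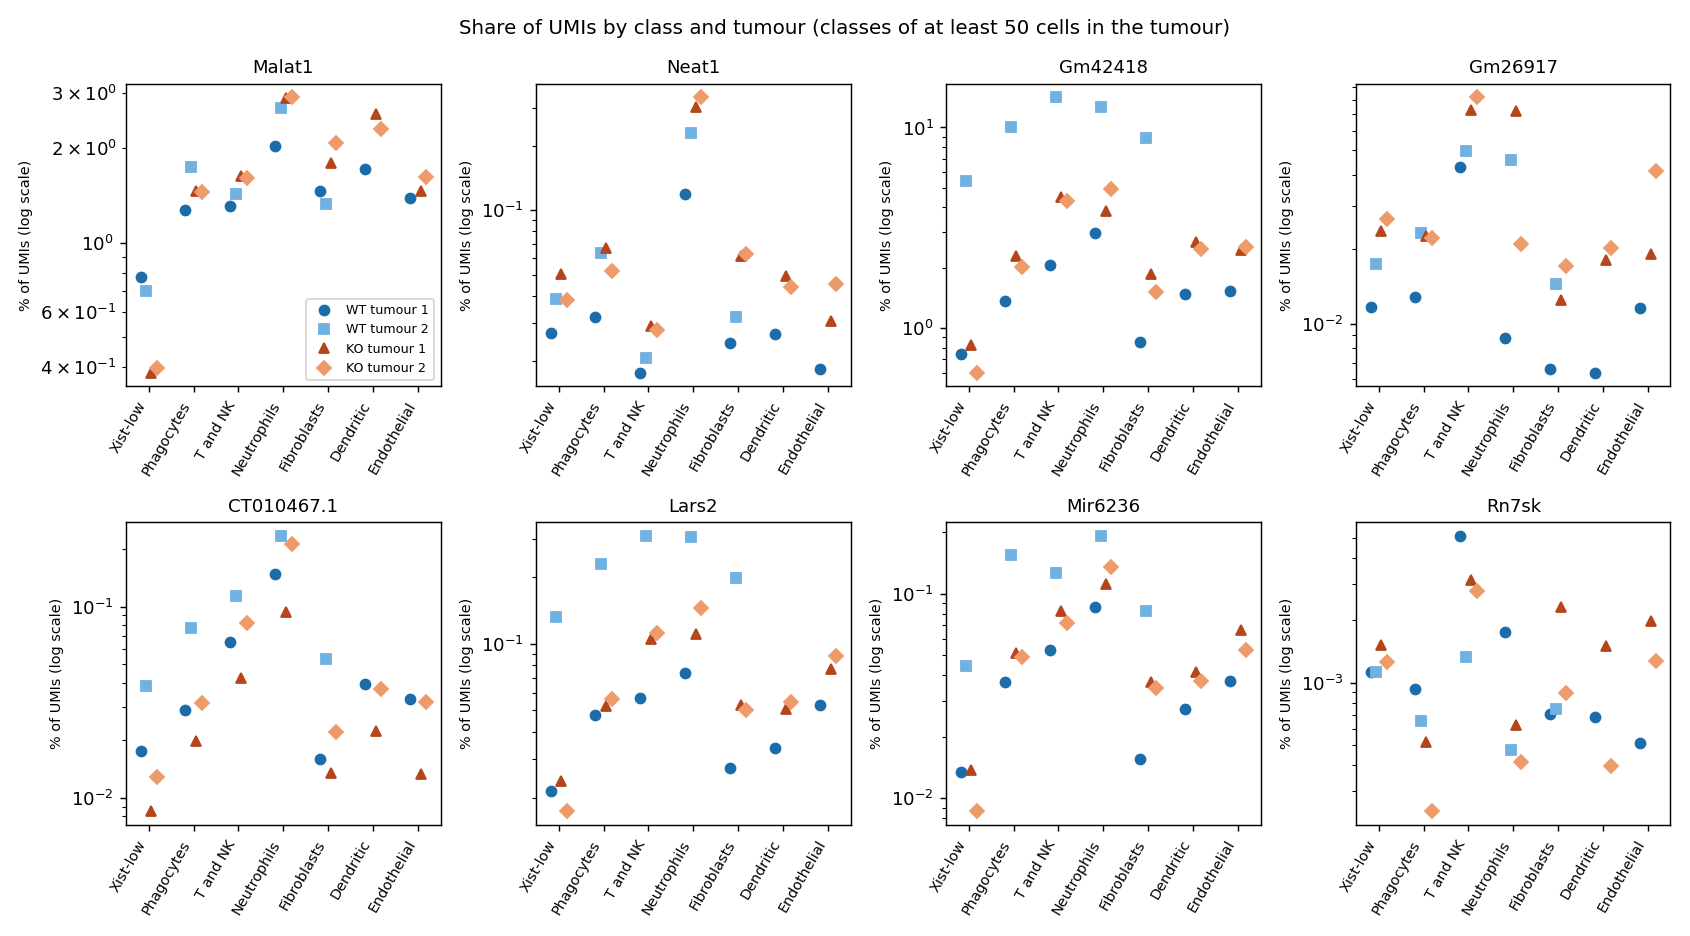
Share of UMIs (percent, log scale) of each of the 8 genes by class, with 1 point for each tumour and classes of at least 50 cells in that tumour. WT tumour 2 lies above the other tumours for Gm42418, Lars2, Mir6236 and CT010467.1, and neutrophils lie highest for Malat1 and Neat1; a class with no Rn7sk UMI would have no point.

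Among named classes of at least 50 cells in the tumour, Gm26917, the CpG-rich model, and Rn7sk were highest in T and NK cells in all 4 tumours. Gm26917 gave 0.0430% and 0.0499% of their UMIs in the WT group and 0.0728% and 0.0817% in the KO group. Rn7sk gave 0.00509% and 0.00133% against 0.00313% and 0.00275%, from 54, 13, 315 and 203 UMIs. The WT tumours thus lay on either side of the KO tumours for Rn7sk. Cells of unnamed clusters held 0.0210% and 0.0636% Gm26917 in the WT group and 0.150% and 0.364% in the KO group. Rn7sk gave 0.00140% and 0.00143% against 0.00528% and 0.00702% there. Both genes were thus higher in unnamed cells than in T and NK cells in every tumour but WT tumour 1.

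A small set of barcodes carried much of Gm26917 in the KO group. At least 10% of their UMIs came from Gm26917 in 48 barcodes of KO tumour 1 (0.503%, 0.371% to 0.666%) and 65 of KO tumour 2 (0.679%, 0.524% to 0.864%). WT tumour 1 had 0 of 12741 and WT tumour 2 had 5 (0.0430%, 0.0140% to 0.10%). The 0 allows a share of up to 0.0289% by the exact interval. Chosen after the values were seen, these barcodes held 37.5% and 42.5% of all Gm26917 UMIs of KO tumours 1 and 2, with a highest share of 31.5% and 50% in 1 barcode. Their median depth was 2497 and 2026 UMIs. They also held 17.4% and 18.6% of the Rn7sk UMIs of those libraries, which was 0.259% and 0.241% of their own UMIs.

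Other RNAs stood out in the same barcodes. Set against the other barcodes under 5000 UMIs of the KO libraries, among genes with a UMI in at least 25% of the 113, the largest folds after Gm26917 were those of Rn7sk (54.8), the small ribosomal RNA n-R5-8s1 (27.7), the immediate early gene Ccn1 (25.3), the histone gene Hist2h2bb (23.8) and Rpph1, the RNA of ribonuclease P (22.7). Arc (20.6), Scarna2, a small Cajal body RNA (13.2), and Myc (11.1) followed further down. These are folds of UMIs per 10000, with 0.1 added to each, in barcodes picked by Gm26917, and carry no test. Mitochondrial genes gave 24.1% and 13.8% of their UMIs and ribosomal protein genes 2.28% and 3.35%, while Malat1 gave 1.14% and 1.61%, below its 2.53% and 2.36% in all barcodes under 2000 UMIs of those libraries. Of the 118 in all tumours, 50 were removed by the filters or as doublets, 45 lay in unnamed clusters and 20 in Xist-low cells. Unnamed cluster 16, shallow and low in Xist and Ptprc, held 32 of them.

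**Figure D4:**
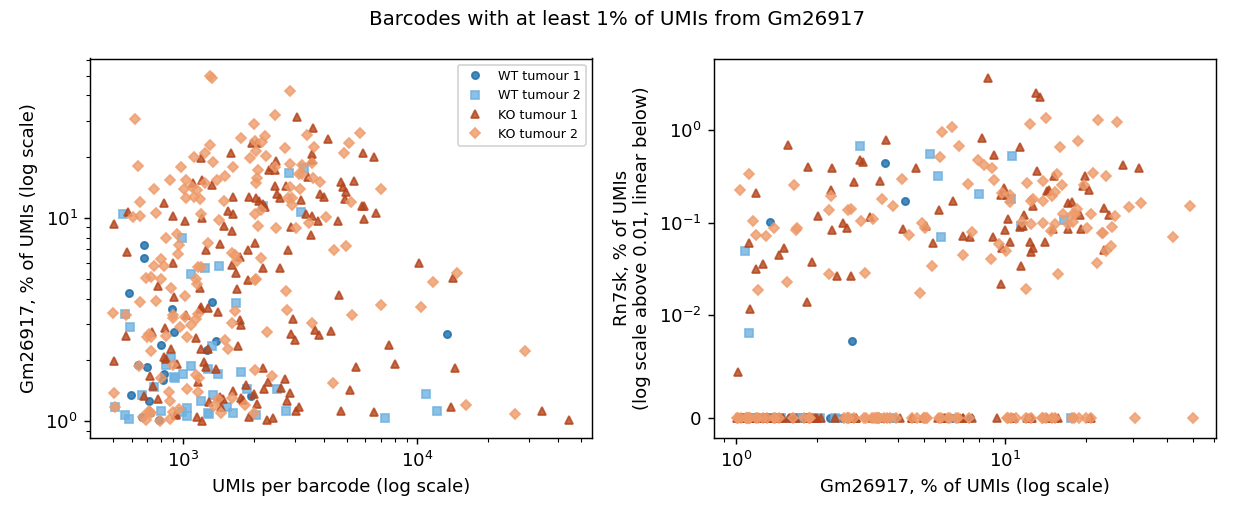
Barcodes with at least 1% of UMIs from Gm26917. Left, Gm26917 share against UMIs per barcode, both on log scales; right, Rn7sk share (log scale above 0.01%, linear below) against Gm26917 share. Triangles and diamonds are KO tumours 1 and 2, which hold 147 and 157 of these barcodes, against 19 and 44 in WT tumours 1 and 2.

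Members were among the leading genes of cluster 16, a shallow cluster, with the members left out of the clustering. They had been chosen by their part in barcodes of few UMIs. Only 2 of them were among the variable genes when kept, and genes that track them, such as Gm15564, were not barred. The cluster held 197 and 411 cells of the WT tumours and 68 and 137 of the KO tumours, at median depths of 711 to 944 UMIs. By fold over other cells its leading genes were Gm26917, CT010467.1, Mir6236, Lars2, Gm15564, mt-Rnr1 and Gm42418. Gm26917 gave 0.225% and 0.306% of its UMIs in the WT group and 3.05% and 4.90% in the KO group, and Rn7sk 0.00617% and 0.00604% against 0.108% and 0.0704%. Malat1 gave 1.65% and 0.677% against 1.01% and 0.668%. The higher pooled values of the KO group were not seen in the barcodes of the cluster under 1000 UMIs. Under 1000 UMIs Gm26917 gave 0.283% and 0.222% in the WT group (141 and 242 cells) and 0.296% and 0.217% in the KO group (35 and 80 cells), with Rn7sk at 0.00642% and 0.00663% against 0.00428% and 0%. At 2000 to 5000 UMIs Gm26917 gave 0.848% in 44 cells of WT tumour 2 and 8.04% in 20 cells of KO tumour 2, and Rn7sk 0.0172% and 0.185%. The cluster was given no name. It was kept out of the Xist-low class because its median UMIs were under 1 in 3 of those of its samples. Clusters 15, 20 and 22, also under 1 in 3, carried T and NK markers but none among their leading genes. They stayed unnamed, outside the T and NK class.

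The question of the study's design is how loss of Hnrnpa2b1 in the injected cells goes with gene activity in those cells and in the host cells around them. UMIs were summed over the cells of a class in each tumour and the sums compared between groups with edgeR's quasi-likelihood test over all genes. In Xist-low cells, Malat1 was lower in the KO group, and it was the only member called of the 8. Its level was 7964 and 7120 CPM in WT tumours 1 and 2 and 3632 and 4067 CPM in KO tumours 1 and 2. The groups did not overlap. The log2 fold change was -0.97 (SE 0.19, edgeR adjusted p = 0.0329), and lower in 2 of 2 KO tumours. Across all genes of this class 8.78% were called (1578 of 17982), 802 higher and 776 lower (50.8% higher, and 64.6% with library totals in place of TMM scaling), and 1 of 8 members is near that share.

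The Malat1 call was not firm. When KO tumour 1 was left out the log2 fold change was -0.89, with an edgeR adjusted p of 0.194. Leaving out the other KO library gave -1.05 and 0.133. The remaining KO tumour is then a lone sample taken to vary like the WT tumours, and the size held while the call was lost. The call was also lost in cells of 2000 to 20000 UMIs (log2 fold change -0.73, adjusted p = 0.294), with edgeR in each case, and with the replicate block given in the closing section. Depth moved with the groups, since Xist-low cells had median UMIs of 12051 and 12295 in the WT group and 39713 and 32169 in the KO group, and its part in the difference was not tested beyond the depth bins that follow. Between 10000 and 20000 UMIs the Malat1 share was 0.807% and 0.736% in the WT group against 0.602% and 0.450% in the KO group. Between 20000 and 50000 UMIs it was 0.585% and 0.666% against 0.369% and 0.390%, and the groups did not overlap in either bin. At 50000 UMIs or more it was 0.272% and 0.322% against 0.380% and 0.420%, the other way round. Between 2000 and 5000 UMIs WT tumour 2, at 0.783%, lay below the KO tumours at 0.813% and 0.878%.

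The other members in Xist-low cells did not pass the test. Gm26917 was at 120 and 177 CPM in the WT group and 223 and 269 CPM in the KO group (log2 fold change 0.73, edgeR adjusted p = 0.0677, DESeq2 adjusted p = 0.00352; 1.03 without WT tumour 2, adjusted p = 0.00446). In cells of 2000 to 20000 UMIs the difference was 3.73 (adjusted p = 0.00101), and Rn7sk, at 0.23 in all cells (adjusted p = 0.258), was at 2.45 (adjusted p = 0.000403). Barcodes with at least 10% Gm26917, 20 of which belong to this class, lie within or below that window, and KO tumours have few Xist-low cells in it. CT010467.1 was at 179 and 389 CPM against 80.1 and 131 CPM (-1.43, adjusted p = 0.0620; -0.77 without WT tumour 2, adjusted p = 0.0483). Neat1 was at 277 and 393 CPM against 477 and 389 CPM, where the groups overlap (0.37, adjusted p = 0.262).

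For Gm42418 and the genes that track it, 1 tumour set the difference. Gm42418 in Xist-low cells was at 7634 CPM in WT tumour 1 and 54726 CPM in WT tumour 2, against 7737 and 6104 CPM in the KO group. The log2 fold change was -2.17 (SE 0.79, adjusted p = 0.123) and -0.15 without WT tumour 2. Lars2 went from -1.95 to -0.13 and Mir6236 from -1.44 to -0.36 on leaving that tumour out, with no call in either fit. Without WT tumour 1, 5 members were called lower, Gm42418 at -2.98 (adjusted p = 5.4e-06), and WT tumour 2 was then the lone WT sample. WT tumour 1 lay between the KO tumours for Gm42418 and Lars2.

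Lists of partner genes in the same cells had shares of calls to be read against the 8.78% of all genes, and with lists this short nothing particular to a list is read from 1 call. Of 13 genes of the 7SK particle and P-TEFb, 0 passed the test, and of 12 nuclear speckle and Malat1 processing genes, 0 (medians of log2 fold change 0.14 and 0.07, against -0.01 over all genes tested). Of 11 paraspeckle genes, Pspc1, a core paraspeckle protein, was higher (0.55, adjusted p = 0.0494). Of 15 tested nuclear-retained RNAs other than the members, 4 were higher (against 802 of 17982 genes), namely Xist (1.28, adjusted p = 0.0328), Gm47283 (0.94, adjusted p = 0.0110), Dleu2 (0.83, adjusted p = 0.0425) and Kcnq1ot1, the imprinted antisense RNA (0.53, adjusted p = 0.0428). Gm37376 was lower (-2.57, adjusted p = 0.0205). Of 16 mitochondrial aminoacyl-tRNA synthetases, the family of Lars2, Mars2 was higher (0.84, adjusted p = 0.0329), and of 8 other ribosomal-like and polymerase III models Rny3, a Y RNA, was lower (-0.80, adjusted p = 0.0354). Of 13 mitochondrial genome transcripts and 12 abundant cytoplasmic mRNAs, 0 passed. Each adjusted p is from edgeR over all genes, with 2 tumours a group.

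Markers of other cells moved in the same sums. The 13 T and NK markers summed to 10.4 and 4.92 CPM in the WT group and 38.0 and 26.7 CPM in the KO group, and 7 of 13 were higher. The 12 phagocyte markers summed to 194 and 85.8 CPM against 283 and 222 CPM, with Fcgr1 and Ly6c2 higher. The 10 neutrophil markers summed to 11.9 and 12.8 CPM against 33.5 and 17.0 CPM, with Il1r2 and Acod1 higher, and the 10 fibroblast markers to 1716 and 2259 CPM against 1300.4 and 799.6 CPM, with Col3a1 and Dcn lower. Xist, a mark of host cells here, belongs with them. Their part in the changes above was not tested.

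In mononuclear phagocytes 0 members were called, and so was 0% of all 12923 genes tested with edgeR (0; 2361 at an unadjusted p under 0.05; DESeq2 called 432 genes and 0 members). Malat1 was at 12097 and 17411 CPM in the WT group and 14595 and 15244 CPM in the KO group, with the KO tumours between the WT tumours (log2 fold change 0.02, adjusted p = 0.989). Gm42418 was at 13055 and 100389 CPM against 22971 and 21177 CPM (-1.36, adjusted p = 0.470; 0.77 without WT tumour 2, adjusted p = 0.195). Without WT tumour 2, Neat1 (1.01, adjusted p = 0.0368) and Gm26917 (0.92, adjusted p = 0.0291) were called higher, and WT tumour 1 is then the lone WT sample, taken to vary like the KO tumours. Of the 8 lists of partner genes, none had a gene past the threshold in this class with edgeR.

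In T and NK cells 0 members were called, against 3.43% of all genes (409 of 11916; 53.1% of them higher, and 72.8% with library totals, which shift the median of all genes from 0.00 to 0.11). Gm42418 was at 19802 and 158295 CPM in the WT group and 41979 and 42687 CPM in the KO group. All 4 tumours gave a log2 fold change of -1.07 (adjusted p = 0.380), and leaving out WT tumour 2 turned it to 1.12 (adjusted p = 0.00591). Lars2 turned from -0.93 to 0.96 (adjusted p = 0.000563) and Mir6236 from -0.37 to 0.57 (adjusted p = 0.0259), and Neat1, Gm26917 and Rn7sk were also called then. Leaving out WT tumour 1 gave -1.89 for Gm42418 (adjusted p = 0.000317). In each of these fits a lone WT tumour is taken to vary like the KO tumours, although the WT tumours lay on both sides of the KO group, and the direction is that of the WT tumour kept. Gm26917 was at 414 and 559 CPM against 682 and 808 CPM, with no overlap (0.62, adjusted p = 0.111), and Neat1 at 170 and 232 CPM against 273 and 275 CPM (0.45, adjusted p = 0.187). All these values are from edgeR. Markers of other cells moved in these sums too. The 12 phagocyte markers summed to 914 and 1015 CPM in the WT group and 1781 and 1577 CPM in the KO group, with C1qa, Apoe and Cd68 higher, and the 10 neutrophil markers to 36.7 and 58.1 CPM against 150.4 and 95.5 CPM, with Il1r2 higher. Of the 13 T and NK markers, Cd8a was higher and Klrb1c, Ncr1 and Gzma were lower. Their part in the values of the members here was not tested. The class left out clusters 15, 20 and 22, which had T and NK markers but few UMIs. They held 168, 108 and 50 cells in WT tumour 1, and 236, 49 and 52 in WT tumour 2. The class there held 351 and 327. In KO tumours 1 and 2 they held 287, 164 and 81, and 343, 175 and 152 cells, against 1965 and 1929 in the class. In cluster 15 Gm26917 gave 0.0804% and 0.0702% of UMIs in the WT group and 0.446% and 0.511% in the KO group. The part of this cut was not tested.

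In neutrophils, 0 members and 0% of 4763 genes were called (636 at an unadjusted p under 0.05; DESeq2 0). Neat1 was at 1101 and 2451 CPM in the WT group and 2931 and 3481 CPM in the KO group (log2 fold change 0.82, edgeR adjusted p = 0.402). WT tumour 1 had only 51 of these cells and 68 Neat1 UMIs. Rn7sk, with 1, 2, 9 and 2 UMIs, fell below the filter on low counts and was not tested.

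In fibroblasts, 0 members and 0% of 11584 genes were called (1609 at an unadjusted p under 0.05; DESeq2 called 176 genes). Neat1 was nearest to a call, at 240 and 310 CPM in the WT group and 625 and 643 CPM in the KO group. It was higher in 2 of 2 KO tumours with no overlap (log2 fold change 1.21, SE 0.26, edgeR adjusted p = 0.213, DESeq2 adjusted p = 0.0172). Malat1 there was at 14445 and 12831 CPM against 18230 and 21433 CPM (0.54, adjusted p = 0.567).

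**Figure D5:**
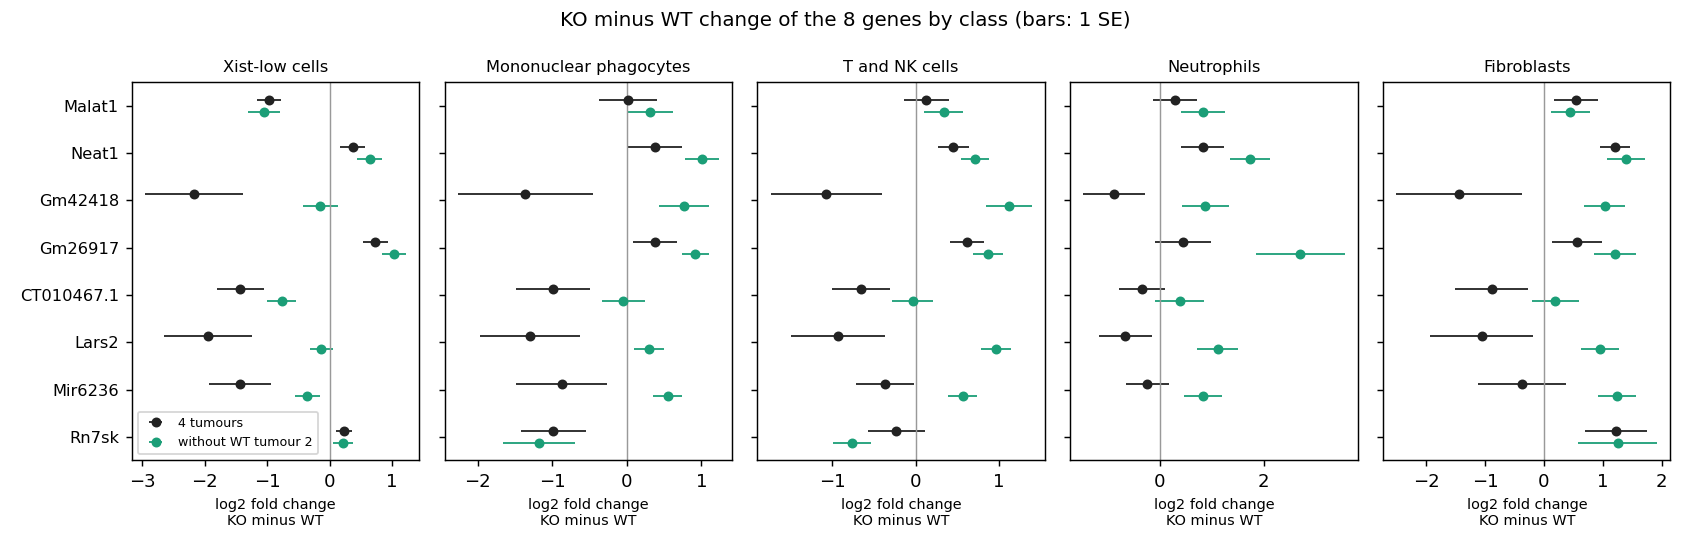
Log2 fold change KO minus WT (x axis; bars, 1 standard error) of the 8 genes in 5 classes, from all 4 tumours (black) and without WT tumour 2 (green). Gm42418 and Lars2 move from below to above 0 in 4 classes when WT tumour 2 is left out, while Malat1 in Xist-low cells stays at -0.97 and -1.05.

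The difference of the change between Xist-low cells and phagocytes was tested with the tumour as a block. Of all genes, 2.35% were called (418 of 17752), and 0 members. Malat1 differed by -1.02 on the log2 scale (SE 0.28, edgeR adjusted p = 0.0948; DESeq2 adjusted p = 0.0260), and Rn7sk by 1.24 (SE 0.37, adjusted p = 0.121), from few UMIs in phagocytes. Gm42418 differed by -0.87 (adjusted p = 0.101; -0.93 without WT tumour 2, adjusted p = 0.0917). Refits without 1 tumour, chosen after seeing the data, gave Malat1 -1.38 to -0.81. It passed the test without WT tumour 2 (-1.38, edgeR adjusted p = 0.0373), as did CT010467.1 (-0.73, adjusted p = 0.0378), with WT tumour 1 then the lone WT sample, and Rn7sk did so without KO tumour 1 (1.75, adjusted p = 0.0122). A change of Malat1 particular to the Xist-low cells was not shown with all 4 tumours.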

How the data were processed

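Single-cell RNA libraries of 4 tumours were used. The deposited files hold whole-number UMI counts per gene and barcode, which the authors did not normalize; per the labels' protocols they were made against mm10 by Cell Ranger 5.0.1, although version 6.1.2 stands in the file headers, and Seurat 5.1.0 is named per the submitters' processing notes, with no role given. The 8 genes, the lists and the tests were chosen with earlier results of these data known.

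All barcodes entered the shares against depth. For classes, barcodes under 300 genes or 500 UMIs, or over 20% mitochondrial UMIs, were dropped, the highest Scrublet scores (0.8% per 1000 barcodes) removed, and cells clustered with scanpy 1.11.5 (2000 variable genes without the 8 members, 30 components, Leiden at resolution 1.0 on 15 neighbours with leidenalg 0.10.2). A cluster took its name from at least 3 markers found in 10% of cells at 2 times the level elsewhere; the Xist-low rule was set with the data known. Sums per tumour, for classes of 50 or more cells in every tumour, were fitted in edgeR 4.0.16 (TMM, filterByExpr, group only, Benjamini-Hochberg over all genes, threshold 0.05). CPM are UMIs of the gene over those of the class, scaled by TMM. DESeq2 1.42.0 was an alternative; the fits were tested on simulated data. Coordinates and transcripts come from GENCODE vM21. The sequence of Mir6236 is not reported here.

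All 8 members are named throughout; list genes only where past the threshold in Xist-low cells or phagocytes, at most 4 a list; and, for likeness, the 5 genes with the highest correlation among those of at least 10 CPM. Exact binomial 95% intervals cover counting error only.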

Additional observations from a re-analysis of the deposited data

How the results depend on the processing

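Fold changes of the 8 genes by class had 680 alternative values, of which 590 kept direction and side of the threshold, 54 gained a call, 4 lost one and 32 changed sign, 24 of them on leaving out 1 tumour and 14 of those without WT tumour 2. Members called in Xist-low cells, 1 as reported, were 2 with DESeq2, Leiden resolution 0.5, cells of 2000 to 20000 UMIs or the shallow Xist-low cluster kept, 6 with no filter on low counts, and 0 to 5 on leaving out 1 tumour. In the other classes, 0 as reported, no filter gave 4 in phagocytes, 4 in T and NK cells and 2 in fibroblasts, DESeq2 gave 1 in fibroblasts and 1 for the interaction, and Leiden 0.5 gave 1 in T and NK cells. Leaving out 1 tumour gave 0 to 2 in phagocytes, 1 to 6 in T and NK cells, 0 to 2 in neutrophils and 0 to 2 for the interaction. Replicate numbers did not pair the tumours (correlations of deviations -0.58 to 0.00). The replicate block gave 2 members in Xist-low cells (Malat1 -0.97, adjusted p = 0.0831) and Mir6236 at 0.061 in fibroblasts. Crossed pairing, chosen after seeing the data, gave 4 members in Xist-low cells, 1 in fibroblasts (Mir6236 0.044), and over all genes 4016 calls in Xist-low cells against 1643 with the block and 1578 without. Malat1 in Xist-low cells was -0.73 in cells of 2000 to 20000 UMIs and -1.05 to -0.89 on leaving out 1 tumour.

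Other signs changed for Malat1 in phagocytes (-0.053, library totals), Neat1 in the interaction (0.053, library totals), Rn7sk in T and NK cells (0.34, Leiden 0.5), Gm26917 in neutrophils (-0.67, at most 10% mitochondrial UMIs) and Mir6236 in neutrophils (0.025, Leiden 0.5; 0.21, 2000 to 20000 UMIs). On leaving out 1 tumour, phagocytes ranged from -0.23 to 0.31 for Malat1, -0.068 to 1.01 for Neat1, -0.019 to 0.92 for Gm26917, -2.20 to 0.77 for Gm42418, -2.05 to 0.30 for Lars2 and -1.59 to 0.55 for Mir6236. T and NK cells ranged from -0.019 to 0.34 for Malat1, -0.77 to 0.94 for Rn7sk, -1.89 to 1.12 for Gm42418, -1.71 to 0.96 for Lars2 and -0.91 to 0.57 for Mir6236. Neutrophils ranged from -0.56 to 2.71 for Gm26917, -1.59 to 0.88 for Gm42418, -1.05 to 0.38 for CT010467.1, -1.33 to 1.11 for Lars2 and -0.71 to 0.83 for Mir6236. Fibroblasts ranged from -2.30 to 1.03 for Gm42418, -1.50 to 0.19 for CT010467.1, -1.87 to 0.95 for Lars2 and -1.12 to 1.24 for Mir6236. The interaction ranged from -0.38 to 0.047 for Neat1. The cause was not tested. The mean Malat1 ratio of shallowest to deep barcodes in WT tumours, 2.09, was 2.52 in barcodes that passed the filters and 2.30 over non-mitochondrial totals. Barcodes under 1000 UMIs were 4.04%, 8.22%, 6.27% and 6.41% of WT tumour 1, WT tumour 2, KO tumour 1 and KO tumour 2, and those with at least 10% Malat1 and under 0.5% mitochondrial UMIs 0.0157%, 0%, 0% and 0%. All-gene calls by setting in Xist-low cells ran from 334 (without KO tumour 1) to 4016. Rn7sk in neutrophils gave no value.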
